A study of Homo sapiens with 2 samples.

Results

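The genes described here encode the MCM helicase and the proteins that load it at origins of replication. They are the 10 genes MCM2, MCM3, MCM4, MCM5, MCM6, MCM7, MCM10, CDT1, CDC6 and GMNN, taken by gene name from the array annotation, out of 30482 gene names on the array. They were measured by 12 probes, of which CDT1 and MCM10 had 2 each, and all 12 were well above background in both channels on both arrays. Expression was profiled in PC3, an established cell line derived from a prostate cancer metastasis, grown with 10% fetal bovine serum. Each of 2 dual-colour Agilent arrays carried RNA of cells transfected with Non-T siRNA (non-targeting control, labelled with Cy3) and RNA of cells transfected with a siRNA duplex against SUB1, a transcriptional coactivator (labelled with Cy5). SUB1 siRNA 1 was on one array and SUB1 siRNA 2 on the other, and cells of every group were transfected on consecutive days and harvested 72 h after the first transfection. The dyes were not swapped, so that dye bias cannot be told apart from the effect of knockdown. With 1 array for each duplex no value of a single duplex has a biological replicate, and whether both arrays carried the same Non-T extract is not given in the sources used here. In bulk RNA, fewer cells in S phase and less of a transcript per cell cannot be told apart.

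Before DNA replication begins, the origin recognition complex marks origins, and CDC6 and CDT1 together bring the ring-shaped helicase made of MCM2 to MCM7 onto the DNA, a step called licensing. Geminin, the product of GMNN, binds CDT1 in S phase and after it and so prevents a second round of licensing. MCM10 joins when the loaded helicase is activated together with CDC45 and the GINS proteins. Most of these genes are transcribed in a cell-cycle-dependent way, with E2F factors as known activators, and MCM proteins are widely used as markers of proliferating cells.

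In PC3 cells treated with SUB1 siRNA, CDT1, MCM7 and CDC6 had the lowest ratios among the 10 genes on both arrays with the normalization used here, although the order below CDT1 with siRNA 2 depended on the processing. Their RNA level was 51.0%, 56.4% and 66.0% of that in Non-T siRNA-treated cells with siRNA 1, and 39.5%, 49.2% and 50.2% with siRNA 2. MCM2, MCM4, MCM5 and MCM10 lay between 77.4% and 79.2% of control with siRNA 1 and between 50.9% and 70.1% with siRNA 2. MCM3, MCM6 and GMNN were closest to control or above it, at 98.6% to 127% of control for siRNA 1 and 83.4% to 98.9% for siRNA 2, and on another scaling of the arrays (median centring) their log2 ratios were positive on both. That scaling also raised the median of all genes, from 0.024 on each array to 0.13 with siRNA 1 and 0.12 with siRNA 2. With median centring the siRNA 1 ratios were also closer to 0 by more than 1.5 times for MCM2 (-0.13 in place of -0.34), MCM5 (-0.16 in place of -0.37), MCM7 (-0.54 in place of -0.83) and CDC6 (-0.38 in place of -0.60).

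The promoters of these genes share sequence features that played no part in choosing them. RefSeq promoters (GRCh38.p14, 250 bases before to 50 after an annotated start) were matched for 8 of the 10 genes, with 11 promoters in all, since MCM7 has 3 and GMNN has 2. MCM4 and MCM5 were not matched. Exact matches were sought on both strands for the E2F motif (TTTGGCGC, TTTCCCGC, TTTCGCGC or TTTGCCGC), the CHR element of late cell cycle genes (TTTGAA or TTCGAA), the CCAAT box (CCAAT) and the GC box (GGGCGG). An E2F match was found in 7 of the 11 promoters, 1 for each of 7 genes, whereas 3.31% of all 35116 promoters of this length held one. A CHR match was found in 1 of the 11 (MCM6; 16.4% of all promoters), a CCAAT match in 8 (34.6%) and a GC box in 9 (44.95%). For each of the 7 genes 1 E2F match is shown in its 30-base surroundings, to let the sites of genes with low ratios and with ratios near 0 be set side by side. The strand is that of the gene, read 5′ to 3′, capitals mark the match, and positions count from 1 at the annotated start, with negative positions before it.
MCM2, chr3:127598402-127598431 (plus strand), match at positions 3 to 10: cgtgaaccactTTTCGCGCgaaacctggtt
MCM3, chr6:52284728-52284757 (minus strand), match at positions -4 to 4: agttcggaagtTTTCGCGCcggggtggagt
MCM6, chr2:135876515-135876544 (minus strand), match at positions -90 to -83: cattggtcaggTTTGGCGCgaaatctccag
MCM7, chr7:100101388-100101417 (minus strand), match at positions -9 to -2: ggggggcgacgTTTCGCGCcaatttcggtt
CDT1, chr16:88803743-88803772 (plus strand), match at positions -35 to -28: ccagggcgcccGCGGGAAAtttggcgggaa
CDC6, chr17:40287875-40287904 (plus strand), match at positions 8 to 15: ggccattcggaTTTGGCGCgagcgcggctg
GMNN, chr6:24775322-24775351 (plus strand), match at positions -80 to -73: gctgggtcggtTTTGGCGCgctctcacttc
The CDT1 match lies on the strand opposite to the gene. In MCM2 and MCM6 the match shown overlaps a second one on the opposite strand (positions 7 to 14 and -86 to -79), and MCM6 has another such overlapping pair further upstream, giving 4 matches in this promoter. MCM3 and MCM7 each have 1 more match, at -174 to -167 and -187 to -180. MCM10 had no E2F match in this window. As 7 of the 8 genes with a matched promoter hold an E2F match, its presence could not separate them by their ratios. MCM7, CDT1 and CDC6 at the low end and MCM3, MCM6 and GMNN at the other all hold one. These are matches of letters and do not show binding.

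The knockdown itself was measured first. The ratio of knockdown to control signal (log2) for SUB1 was -3.30 (siRNA 1) and -3.26 (siRNA 2), which left 10.2% and 10.4% of the control signal. All 4 epithelial markers (KRT8, KRT18, EPCAM and CDH1) were called well above background in the control channel. CDH1 was dim there, at 141 and 126 on the siRNA 1 and siRNA 2 arrays, beside 86.5 and 78.6 for negative control spots. PECAM1, a gene of another cell type, had 148 and 134. The probes of KLK3, the gene of prostate-specific antigen, disagreed. The one designed on AF335478 had a Cy3 intensity of 18634 and 15436, while that on the reference transcript NM_001648 had 87.2 and 78.5. Of the genes of other cell types, CD68, PECAM1 and 1 of 2 CD3E probes were above background and PTPRC and COL3A1 were not. No gene spot was saturated, and the median gene spot had an intensity between 105 and 128 in the 4 channels.

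After normalization, 19218 genes were kept, and each is represented by its brightest probe. A log2 ratio of -1 is a 2-fold decrease, the rule for a differentially expressed gene in the methods of the study. None of the 10 licensing genes was at least 2-fold lower with siRNA 1, where 0.609% of all genes were, and 2 of 10 (MCM7 and CDT1) were with siRNA 2, where 1.07% of all genes were. None was at least 2-fold higher on either array. With siRNA 1, 8 of 10 had a ratio below 0 (45.9% of all genes), and with siRNA 2 all 10 did (46.4%). The median over the 10 genes was -0.35 with siRNA 1 and -0.62 with siRNA 2, beside medians of 0.024 on each array over all genes. With the processed signals of the scanner software in place of the normalization used here, 5 of the 10 were at least 2-fold lower with siRNA 2, and with the authors' own log2 ratios or with median centring 1 was. The processed signals and the authors' ratios each gave 7 members below 0 with siRNA 1 and 9 with siRNA 2. Median centring gave 7 on each array. The share of all genes below 0 under these alternatives was not counted. Each licensing probe has a single spot, so its technical error was taken from probes of like intensity that are spotted 10 times. Depending on the gene it was 0.060 to 0.097 (SD of the log2 ratio among spots, 29 to 73 probes), which covers spotting and scanning and not the cultures. Against this error, 7 genes were lower by more than 2 SD with siRNA 1, 1 was higher (MCM6) and 2 were within it (MCM3 and GMNN). With siRNA 2, 9 were lower and 1 was within it (MCM6). How many of all genes pass this bar was not counted, so these counts do not set the licensing genes apart from other genes.

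**Figure D1:**
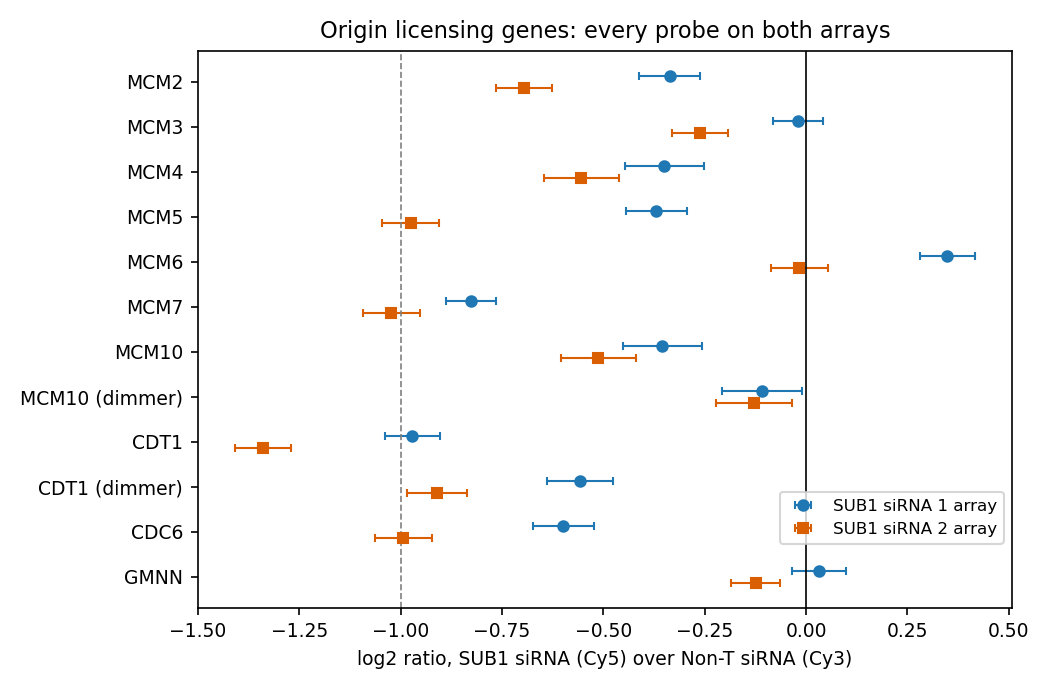
Knockdown over control signal as a log2 ratio (horizontal axis) for each of the 12 probes (rows) on the siRNA 1 array (circles) and the siRNA 2 array (squares). Bars give the technical SD among spots of probes of like intensity, the dashed line is a 2-fold decrease, and "dimmer" marks the second probe of a gene; every square lies left of its circle, and the squares of MCM7 and of the brighter CDT1 probe lie past the dashed line.

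The 6 helicase subunits differed in their ratios. MCM7 (NM_182776; probe at hg18 chr7:99528456-99528515, minus strand) had the lowest ratio of the 6 with siRNA 1, and with siRNA 2 could not be ordered against MCM5. Its normalized intensity was 6487 in Non-T siRNA-treated and 3657 in SUB1 siRNA-treated cells for siRNA 1, against 6610 and 3254 for siRNA 2. Both knockdown values were thus below both control values, with log2 ratios of -0.83 and -1.02. MCM7 was rank 216 from the lowest ratio among 19218 genes with siRNA 1 and rank 190 with siRNA 2.

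MCM5 (NM_006739; hg18 chr22:34149307-34150178, an interval longer than the 60 bases given for most of these probes) differed most between the duplexes. Its intensities were 900 and 697 for siRNA 1, against 877 and 446 for siRNA 2, so the control values were close and the siRNA 2 value was the lowest of the 4. The log2 ratio was -0.37 with siRNA 1 and -0.98 with siRNA 2, just short of 2-fold. MCM2 (NM_004526; hg18 chr3:128823495-128823554, plus strand) had intensities of 843 and 668 for siRNA 1, against 786 and 485 for siRNA 2, and ratios of -0.34 and -0.70. For both genes the control exceeded the knockdown on each array, and the siRNA 2 knockdown was the lower.

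MCM4 (NM_005914; hg18 chr8:49050887-49050946, plus strand) was measured by the dimmest of the helicase probes. Its spot intensity was 177 and 158 in the control channel of the siRNA 1 and siRNA 2 arrays, beside medians of 86.5 and 78.6 for negative control spots. Its ratios were -0.35 and -0.55, and -0.32 and -0.52 without background correction. The scanner software's processed signals, which differ in background and dye normalization, gave -0.54 and -1.17, and with siRNA 2 placed MCM4 below MCM5 (-1.10) and MCM7 (-0.96).

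MCM3 and MCM6 stood apart from the other subunits. MCM3 (NM_002388; hg18 chr6:52236852-52236911, minus strand) had intensities of 4797 in control and 4729 in knockdown cells for siRNA 1, against 4866 and 4060 for siRNA 2. Only the siRNA 2 knockdown was clearly below the rest, and the ratios were -0.020 and -0.26. With median centring they turned to 0.27 and 0.035, beside 0.13 and 0.12 for the median of all genes. MCM6 (NM_005915; hg18 chr2:136314687-136314746, minus strand) was the one member above control by more than 2 technical SDs with siRNA 1, with intensities of 1563 and 1991 there, against 1559 and 1542 for siRNA 2. The control values of MCM6 agreed closely between the arrays. Its ratio was 0.35 with siRNA 1, at rank 17421 from the lowest of 19218 genes, and -0.016 with siRNA 2, within the technical error of 0, where median centring gave 0.59 and 0.23.

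**Figure D2:**
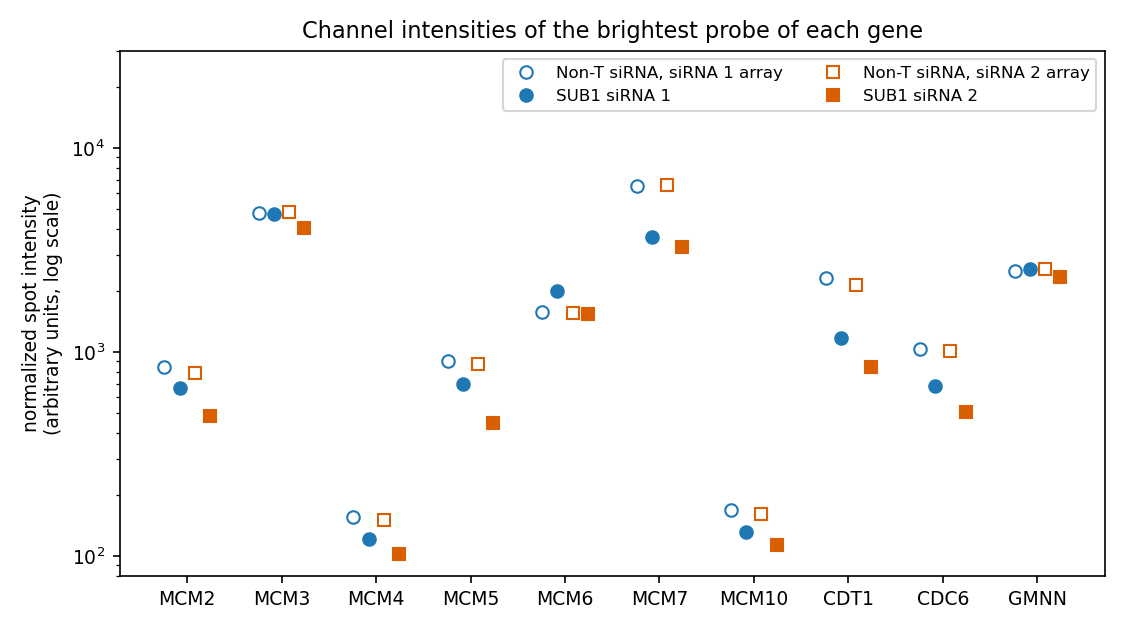
Normalized intensity (arbitrary units, log scale) of the brightest probe of each of the 10 genes, with open symbols for Non-T siRNA and filled symbols for SUB1 siRNA, circles for the siRNA 1 array and squares for the siRNA 2 array. Open symbols of a gene lie close together, while filled squares lie lowest for each gene; levels are not comparable between genes, whose probes differ.

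Of the loading factors, CDT1 (NM_030928; hg18 chr16:87402353-87402412, plus strand) had the lowest ratio of all 10 genes on both arrays. Its intensities were 2308 in control and 1177 in knockdown cells for siRNA 1, against 2139 and 845 for siRNA 2. Both knockdown values, 1 for each duplex, were below both control values. The log2 ratios of -0.97 and -1.34 placed CDT1 at ranks 128 and 66 from the lowest. A second, dimmer CDT1 probe (hg18 chr16:87401348-87402039) had intensities of 367 and 249 for siRNA 1, against 380 and 202 for siRNA 2. It was lower to a smaller extent, at -0.56 and -0.91. CDC6 (NM_001254; hg18 chr17:35711325-35711384, plus strand), the ATPase that works with CDT1, had intensities of 1034 and 683 for siRNA 1, against 1013 and 509 for siRNA 2. Its ratios were -0.60 and -0.99, at ranks 551 and 208.

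MCM10 (NM_182751) and GMNN act after or against loading. The brighter MCM10 probe (hg18 chr10:13291352-13291411, plus strand) had intensities of 168 and 132 for siRNA 1, against 161 and 113 for siRNA 2, with ratios of -0.35 and -0.51. Like MCM4 it is close to background, and the scanner software's processed signals gave -0.50 and -1.08. The dimmer MCM10 probe (hg18 chr10:13291832-13291891, plus strand) had 121 and 112 for siRNA 1, against 112 and 102 for siRNA 2. Its ratios of -0.11 and -0.13 were smaller than those of the brighter probe and within 2 technical SDs of 0. GMNN (NM_015895; hg18 chr6:24894087-24894146, plus strand), which encodes the inhibitor of CDT1, had intensities of 2506 in control and 2561 in knockdown cells for siRNA 1, against 2543 and 2333 for siRNA 2. These 4 values are close to one another, with ratios of 0.032 and -0.12. Median centring gave 0.28 and 0.14, where the median of all genes was 0.13 and 0.12. CDT1 and its inhibitor thus had unequal ratios, with GMNN above CDT1 on both arrays.

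**Figure D3:**
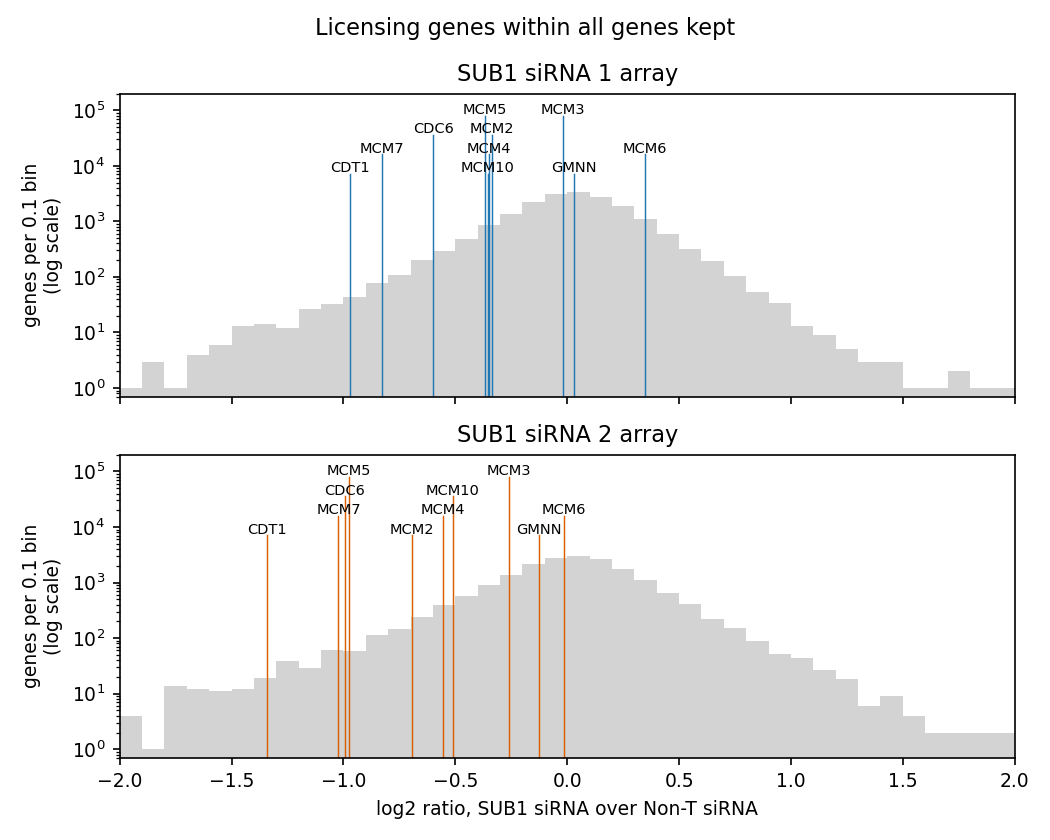
Histogram of the log2 ratios of the 19218 genes kept (grey, bins of 0.1, log scale on the vertical axis) for the siRNA 1 array (top) and the siRNA 2 array (bottom), with the 10 licensing genes marked by lines of no meaning in height. The axis ends at -2 and 2, which leaves out 4 genes for siRNA 1 and 5 for siRNA 2; CDT1, MCM7 and CDC6 lie in the lower tail of both.

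In the order of the ratios, neighbours were often closer than their combined technical SD. With siRNA 1 the order from the lowest was CDT1, MCM7, CDC6, MCM5, MCM10, MCM4, MCM2, MCM3, GMNN and MCM6. MCM5, MCM10, MCM4 and MCM2 could not be ordered there, with gaps of 0.015, 0.0049 and 0.013, and neither could MCM3 and GMNN (0.052). With siRNA 2 the order was CDT1, MCM7, CDC6, MCM5, MCM2, MCM4, MCM10, MCM3, GMNN and MCM6. There MCM7, CDC6 and MCM5 lay within 0.029 and 0.018 of each other, and MCM4 and MCM10 within 0.042. With siRNA 2, MCM5 came before MCM7 with the authors' log2 ratios (-0.93 and -0.92) and with median centring (-0.77 and -0.72), and the processed signals placed MCM4 (-1.17), MCM5 (-1.10) and MCM10 (-1.08) before CDC6 (-1.03) and MCM7 (-0.96). CDT1 came first under each of these, and with siRNA 1 it came after MCM7 when the probes of a gene were averaged (-0.76 and -0.83).

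Taking the duplexes as 2 knockdowns of SUB1, the mean ratio of each gene was tested against 0 with limma over all 19218 genes. None of the 10 licensing genes passed a Benjamini-Hochberg adjusted p of 0.05, which 1 gene of the whole array did (SUB1, 0.0052% of genes), while 7 of the 10 and 4013 of all genes had an unadjusted p under 0.05. The mean log2 ratio was -1.16 for CDT1 (standard error 0.13, adjusted p 0.112), -0.92 for MCM7 (standard error 0.11, adjusted p 0.112) and -0.80 for CDC6 (standard error 0.13, adjusted p 0.113). The adjusted p was 0.144 for MCM4 and MCM10, 0.150 for MCM2 and 0.156 for MCM5. It was 0.498 for MCM6, 0.505 for MCM3 and 0.821 for GMNN, whose mean ratios were 0.17, -0.14 and -0.046. The test rests on 2 arrays. If both carried the same Non-T extract, which is not given, it leaves out the control spread. It then also treats ratios against a shared control as independent.

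All 10 genes had a lower ratio with siRNA 2 than with siRNA 1, as 50.4% of all genes did. The median difference over the 10 was -0.30 (log2, siRNA 2 minus siRNA 1), beside -0.0021 over all genes. It was largest for MCM5 (-0.61), CDC6 (-0.39), CDT1 (-0.37), MCM6 (-0.37) and MCM2 (-0.36), and smallest for GMNN and MCM10 (both -0.16). For 7 genes it exceeded 2 times the combined technical SD, and for MCM4, MCM10 and GMNN it did not. The share of all genes past that bar was not counted, so this count does not set the licensing genes apart. Since the Non-T extract may have been the same on both arrays, its difference between them may hold no spread between cultures. The Cy3 signals differed between the arrays by -0.11 to 0.027 across the 10 genes, with a median of -0.033. The Cy5 signals differed by -0.64 to -0.13, with a median of -0.31, so that the siRNA 2-treated cells had the lower signal for each of the 10 genes. Of all 19218 genes, 9681 had the lower Cy5 signal with siRNA 2. Over all genes the median difference was -0.0021 for Cy3 and -0.0020 for Cy5, and the SD of the difference was 0.12 for Cy3 and 0.31 for Cy5. With 1 array for each duplex the difference between them could not be tested.

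**Figure D4:**
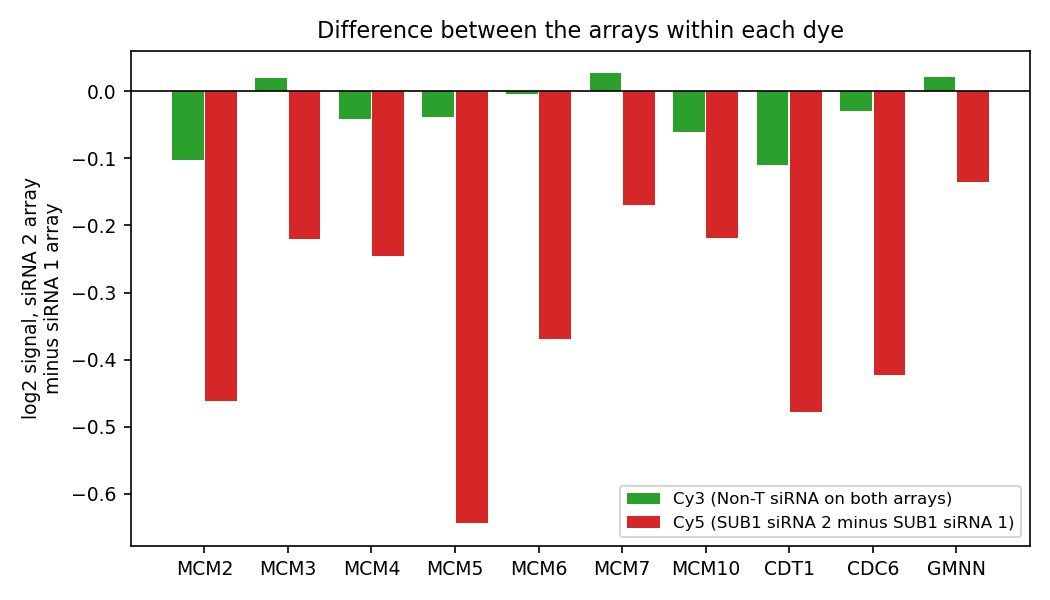
Difference in log2 signal between the siRNA 2 and the siRNA 1 array for each gene (vertical axis), in the Cy3 channel (green, Non-T siRNA on both) and the Cy5 channel (red, SUB1 siRNA 2 minus SUB1 siRNA 1). Green bars stay between -0.11 and 0.027 and red bars reach from -0.13 for GMNN to -0.64 for MCM5.

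The genes that act around licensing were taken from 4 lists with 31 genes, all of them measured. Past 2-fold there were none with siRNA 1 and 1 with siRNA 2, beside the 0.609% and 1.07% of all genes given above. Among 13 factors of helicase activation and origin firing, all 13 had a ratio below 0 on each array by their brightest probe. Of all genes, 45.9% were below 0 with siRNA 1 and 46.4% with siRNA 2. The median of the 13 was -0.38 with siRNA 1 and -0.52 with siRNA 2, similar in size to that of the 10 licensing genes. A dimmer WDHD1 probe had 0.035 with siRNA 1 and -0.16 with siRNA 2. Dimmer probes came as high as -0.064 and -0.14 for GINS3 and -0.088 and -0.10 for TICRR. That of DONSON had -0.50 and -0.60. CDC45, the helicase cofactor, was the one past 2-fold, with intensities of 2091 in control and 1302 in knockdown cells for siRNA 1, against 2112 and 905 for siRNA 2. Its ratios were -0.68 and -1.22. The siRNA 2 ratio was below the siRNA 1 ratio in 8 of the 13 genes (61.5%). It was so in 10 of 10 licensing genes and in 50.4% of all genes.

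The origin recognition complex itself differed from the licensing genes and lay nearer to all genes. Of its 6 subunits and the associated protein LRWD1, by their brightest probes, 2 had a ratio below 0 with siRNA 1 (45.9% of all genes). With siRNA 2, 3 did (46.4%). The medians were 0.10 and 0.094, beside 0.024 on each array over all genes. ORC1, the subunit whose level varies over the cell cycle, had -0.45 and -0.42, from a dim probe with a normalized intensity of 138 and 123 in control cells. ORC3 had 0.35 and 0.094. The brighter ORC6 probe had 0.37 with siRNA 1 and 0.34 with siRNA 2, whereas the other ORC6 probe had -0.51 and -0.57, so that the direction of ORC6 depends on the probe.

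Of 8 ubiquitin ligase parts that act on licensing proteins, 6 had a ratio below 0 with siRNA 1 (45.9% of all genes). With siRNA 2, 4 did (46.4%), and the medians were -0.18 and -0.035. DTL, the receptor that directs CDT1 to destruction during S phase, had -0.41 and -0.89. SKP2, another receptor for CDT1, had -0.11 and -0.70 from a probe near background, and SKP1 had -0.25 and -0.31. DDB1 was above 0 on both arrays, at 0.34 and 0.20. The brighter CUL4B probe had -0.30 and 0.50, and the other had -0.37 and -0.050. The other MCM family genes were below 0 on both arrays, at -0.29 and -0.52 for MCM8, -0.33 and -0.14 for MCMBP and -0.19 and -0.22 for the brighter MCM9 probe, while another MCM9 probe had 0.41 and 0.42. In the limma test none of the 31 genes passed an adjusted p of 0.05, the lowest being 0.112, and 15 of 31 had an unadjusted p under 0.05, beside 4013 of all 19218 genes.

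**Figure D5:**
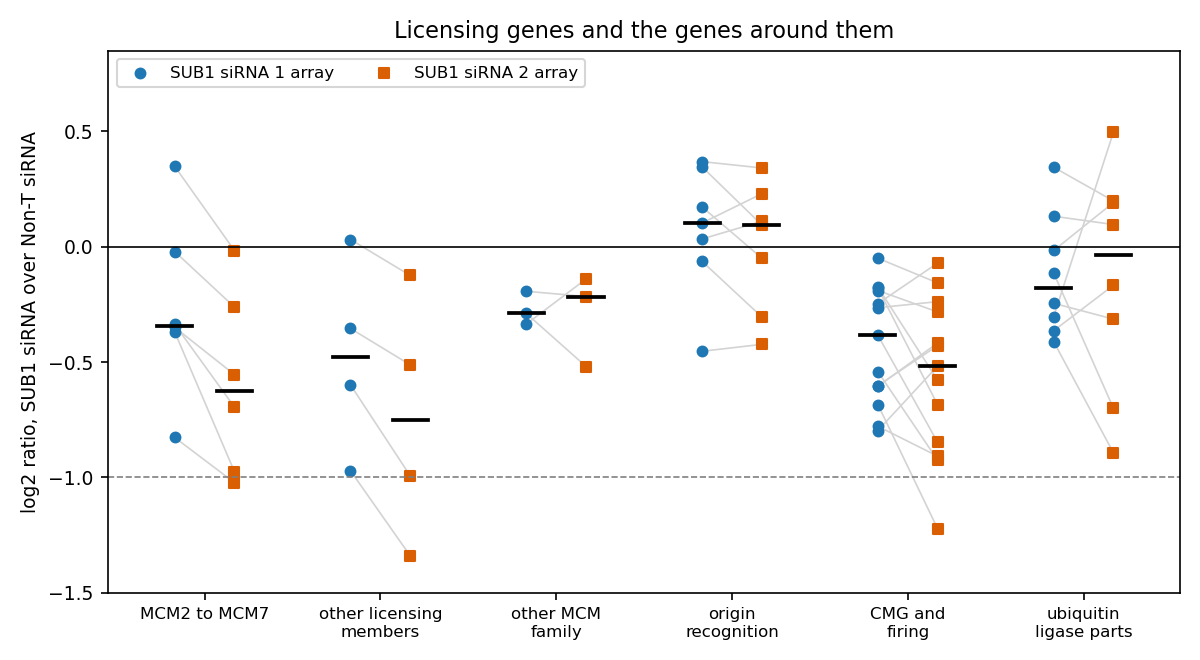
Knockdown over control signal as a log2 ratio for single genes (points) on the siRNA 1 array (circles) and the siRNA 2 array (squares), by group, with grey lines joining the values of a gene and black bars for the medians. The firing factors lie below 0 on both arrays, as most licensing genes do, and the origin recognition group straddles 0; the dashed line is a 2-fold decrease.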

How the data were processed

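RNA of PC3 cells was hybridised to 2 dual-colour arrays. The authors scanned them with Feature Extraction 9.5.1.1 and deposited the intensity of each spot, its local background and processed intensities, and the software's log10 ratio, which was used for direction only. A further deposited table holds the authors' log2 ratios after loess on each array (R package agilp per the methods). Across spots it correlated with loess ratios computed here from the median signals at 0.958 and 0.970, and served as an alternative. Probe positions are in hg18, as the file headers name it.

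Mean spot intensities were corrected by normexp (offset 50) with limma 3.58.1 in R 4.3.3. Control spots were dropped, ratios were normalized by loess (span 0.3), and outlier spots (112 and 100) were left out. A probe was kept (25673 of 41000) if, on each array, the scanner software called 0.5 or more of its spots well above background in 1 or both channels. Channel intensities were aligned between arrays with Aquantile, which leaves the ratios as they are. The mean ratio was tested with lmFit and eBayes over 19218 genes, and the fit was tested on simulated data. Names came from RefSeq (GRCh38.p14) for 13129 genes and from the array files for 6089. The members and gene lists were chosen with earlier results of these data known. Named were all members, SUB1, and from each further list the genes past 2-fold on an array, or else the 3 with the largest absolute mean ratio. Firing factors with more than 1 kept probe were also named, as were DDB1 and CUL4B. The precision is limited by the number of arrays. The transcriptome sequencing named in the methods was not analysed here.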

Additional observations from a re-analysis of the deposited data

Results flagged for a closer look

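MCM6 and GMNN had ratios on opposite sides of 0 with the 2 duplexes. The log2 ratio with siRNA 2 minus that with siRNA 1 was -0.37 for MCM6 (0.35 with siRNA 1 and -0.016 with siRNA 2) and -0.16 for GMNN (0.032 and -0.12). The difference between the duplexes was not tested, as each has 1 array. The siRNA 2 value of MCM6 and the siRNA 1 value of GMNN were within 1 technical SD of 0.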

How the results depend on the processing

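Of 432 comparisons of a value with an alternative, 360 kept their sign and their size or side of the threshold (0.076, the median technical SD, for values). The 360 include counts of members below 0 that changed, as from 10 to 7 with siRNA 2 under median centring. They also include alternatives that left the member ratios as they were, each with all 41 comparisons the same. These were no filter on dim probes, both channels required above background, outlier spots kept, and eBayes with an intensity trend. Median centring kept 17, moved 18 and reversed 6. All 10 genes were lower with siRNA 2 than with siRNA 1 under every alternative, and no member passed an adjusted p of 0.05 under any (range 0.0577 to 0.175 for CDT1). Median centring raised the median of all genes to 0.13 and 0.12, and gave member medians of -0.22 with siRNA 1, -0.50 with siRNA 2 and -0.39 for the mean, with 1 member at least 2-fold lower with siRNA 2. It reversed MCM3 (0.27 and 0.035, mean 0.15), MCM6 with siRNA 2 (0.23) and GMNN (0.14 with siRNA 2, mean 0.21). The scanner software's processed signals gave medians of -0.46, -0.99 and -0.78, with 5 members at least 2-fold lower with siRNA 2, and reversed MCM3 with siRNA 1 (0.016) and MCM6 with siRNA 2 (0.056). The authors' log2 ratios gave 1 such member and reversed the same values (0.044 and 0.028). The cause was not tested. Leaving out 1 array gave a median of -0.62 or -0.35, and the mean of MCM6 then ranged from -0.016 (without siRNA 1, reversed) to 0.35 and that of GMNN from -0.12 to 0.032 (without siRNA 2, reversed), with no test on 1 array. Each ratio already pairs knockdown with control on its own array. Dim probes of MCM4 and MCM10 limit their values.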
